A study of Arabidopsis thaliana with 6 samples.

Results

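Phloem tissue of Arabidopsis thaliana cut out by laser microdissection and pressure catapulting (LMPC) was measured on 3 Affymetrix ATH1 arrays. In LMPC a laser cuts around chosen cells in a tissue section and propels them into a collection tube. The most abundant transcripts were selected on the measured signal: a probe set was kept if it lay above its array's 95th percentile on all 3 arrays. This left 837 of 22746 non-control probe sets, or 3.68%, called members here. These signals chose the members, so their levels and ranks are given as a description with no test.

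Phloem carries sugars and signals from leaves to growing organs. Its sieve elements lose their nucleus and most ribosomes at maturity and depend on companion cells, which are densely filled with ribosomes and mitochondria and feed the sieve tubes with proteins and energy. Phloem parenchyma, which in leaves releases sucrose towards the companion cells through SWEET exporters, lies beside them.

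The series held 6 arrays, 3 of this tissue and 3 of phloem exudate, which are used only to place the members at the end. All plants grew in short days, with 8 h of light at 22 °C and 16 h of darkness at 16 °C. The labels give no genotype, organ, age or treatment, and nothing in them states that the 3 replicates were separate plants, so their spread may be technical. Poly-A RNA was captured on oligo-dT beads, and the LMPC cDNA was pre-amplified with 10 PCR cycles before in vitro transcription. The extraction label of the LMPC samples speaks of exudates, against their titles and source, which were followed.

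The median signal was 15.8, 14.7 and 13.4 on LMPC arrays 1, 2 and 3, and the 95th percentile lay at 128.6, 119.0 and 95.1. The highest signals were 15572.8, 14546.3 and 11951.9. The members held 50.5%, 49.7% and 47.0% of the summed signal, and the 100 highest probe sets of each array held 26.4%, 24.3% and 22.7%. Signals of different probe sets also depend on the probes, so a rank orders signal and not numbers of molecules. A bulk signal cannot tell fewer cells of a type apart from less RNA per cell.

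The probe annotation paired 438 members with 1 gene, 48 with several genes and left 351 unnamed here. Members made up 3.24% of all probe sets of 1 gene, 9.54% of those of several genes and 4.02% of the unnamed. Probe sets of several genes stand in none of the gene groups below. The 3 highest-ranked probe sets were unnamed. The first read 15572.8, 14546.3 and 11951.9 on arrays 1 to 3. Of the 50 highest by median rank, 23 had 1 gene, 25 were unnamed and 2 had several genes. Over all 22746 non-control probe sets these numbers were 13513, 8730 and 503. Among 13355 genes with a probe set of their own, 437 were member genes, or 3.27%, and this share stands beside each gene group.

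The label could be checked against few phloem markers. Of 34 companion cell and sieve element genes, 6 had a probe set of their own, and SUC2, APL, AHA3, SEOR1, SEOR2, PP2-A1, FT and SWEET12 were not analysed here. The only member among the 6 was CLE41, a peptide ligand made in phloem that acts on the neighbouring cambium, with signals of 322, 149 and 156 and ranks of 445, 879 and 669. CLE41 was highest on array 1, and arrays 2 and 3 were close to each other. SWEET11, a sucrose exporter of phloem parenchyma, read 75.4, 36.9 and 61.1. The glucosinolate transporters GTR2, at 53.4, 34.2 and 50.3, and GTR1, at 39.9, 29.4 and 47.3, lay above every array's median but below its threshold. CLE44, which encodes the same kind of peptide as CLE41, read 46.8, 24.8 and 22.3. OPS, a polar membrane protein of young sieve elements, read 2.83, 2.01 and 23.4, under the median on arrays 1 and 2.

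Markers of other cell types were equally few. GUT2, an enzyme of xylan synthesis from the xylem list, read 80.01, 64.9 and 80.6, and LHW, a transcription factor of vascular initials, read 27.1, 58.0 and 22.8. FMA, a guard cell transcription factor, read 10.8, 20.5 and 28.9. None of these 3 was a member, and each was the single measured gene of its list. Nuclear photosynthesis genes, which mark green mesophyll but also green vascular cells, were the exception, with 5 of 8 measured genes among the members. The non-members of this list were PRK, at 162, 87.9 and 58.4, LHCB4.2, at 159.6, 86.8 and 33.96, and RCA, at 96.01, 38.7 and 34.8. PRK and LHCB4.2 passed the threshold on array 1 alone, and RCA passed it on no array. The summed signal of the 6 measured phloem markers was 540, 276 and 360 on arrays 1 to 3. That of the 8 photosynthesis genes was 5540, 2300 and 1455. The sums run over different probe sets, so they do not compare the amount of phloem RNA with that of green tissue. The part that green tissue had in the results below was not tested.

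The 20 highest-ranked genes with a probe set of their own included 3 plastid genes, a glutaredoxin, a methionine sulfoxide reductase, a dehydrin and an enzyme of glucosinolate synthesis. The highest was psbM, which encodes a small subunit of photosystem II, at 9127, 5708 and 4650 and ranks of 4, 7 and 4. GRXC2, a glutaredoxin that reduces disulfides with glutathione, read 3893, 3822 and 2022, with ranks of 16, 12 and 25. MSRB5, which repairs oxidised methionine, read 2982, 3029 and 1175. For both redox enzymes arrays 1 and 2 were nearly equal and array 3 was lower, as array 3 was the lowest for 64.9% of all members.

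AT1G54410, the dehydrin HIRD11 and one of a family of proteins linked to water deficit, read 2764, 3038 and 1843. BCAT4, an aminotransferase that starts methionine chain elongation for glucosinolates, the sulfur-rich defence compounds of the cabbage family, read 2686, 2734 and 1529. Its ranks were 39, 26 and 34. GSTU20, a glutathione transferase of the same list, read 1353, 1006 and 507. Array 3, the dimmest array, was the lowest for all 3 genes. Of 6 measured glucosinolate genes these 2 were members, while UGT74B1, a glucosyltransferase of the core pathway, read 34.3, 25.6 and 17.03. Of 11 measured tau class glutathione transferases GSTU20 was the only member, and the next, GSTU27, read 74.8, 56.2 and 79.0.

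**Figure D1:**
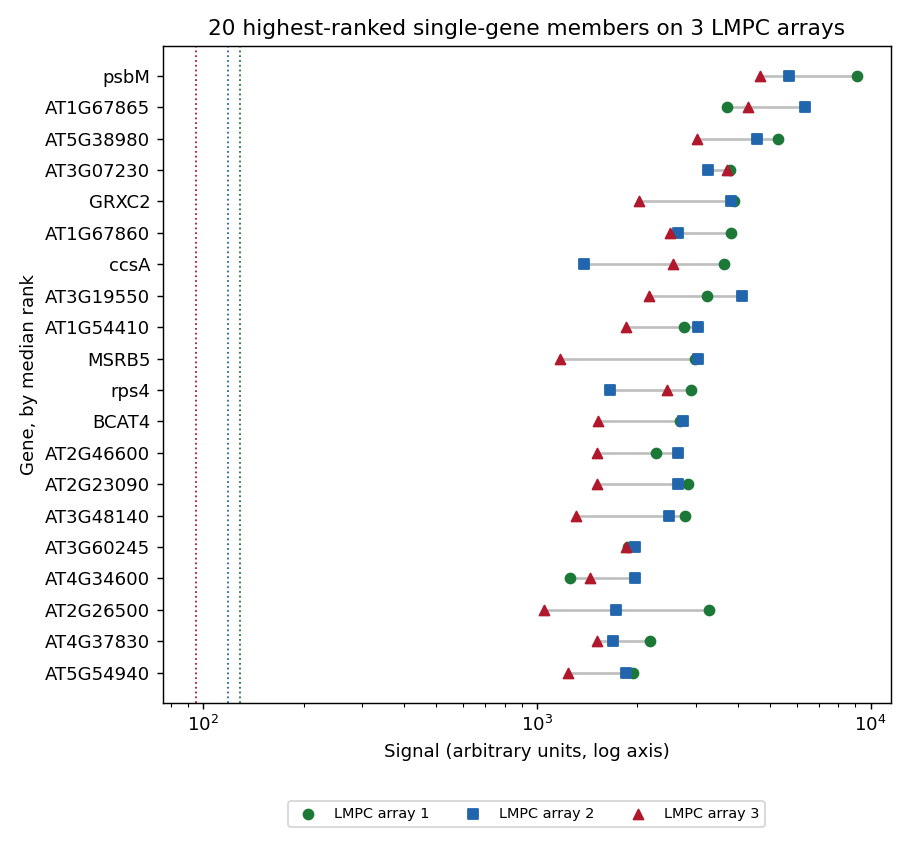
Signal of the 20 highest-ranked members with a probe set of their own on each of the 3 LMPC arrays, on a log axis, with dotted lines at each array's 95th percentile. All 20 lie well above the thresholds of 128.6, 119.0 and 95.1, and AT3G60245 has almost the same signal on every array while ccsA and AT2G26500 spread widely.

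Far above the threshold on every array, AT1G67865 read 3719, 6338 and 4297, with array 2 the highest. Its neighbour on chromosome 1, AT1G67860, read 3818, 2641 and 2505. AT3G07230 read 3799, 3266 and 3719, a ratio of highest to lowest of 1.16. AT5G38980 read 5287, 4573 and 3018 and AT3G19550 read 3241, 4123 and 2169. None of these 5 genes carries a symbol in the annotation used. The same holds for most members, since 84 of the 437 member genes had a symbol other than their locus code.

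Cytosolic ribosomal proteins were the most numerous group. Of 131 measured genes 62 were members, or 47.3%, with 22 of 48 of the small subunit and 40 of 83 of the large subunit. This list and that of the respiratory chain were assembled after values were seen, so their shares support nothing by themselves. The highest was AT3G60245, of the L37a family, at 1879, 1969 and 1843 and an SD of log2 signal of 0.05. AT1G52300, of the L37 family, read 1195, 1430 and 2012, highest on array 3 in the signals as deposited. AT3G09500, of the L35 family, read 1611, 1593 and 1117. In the small subunit AT5G27700, of the S21 family, led with 1413, 1386 and 982, followed by AT1G15930, of the S12 family, at 1035, 744 and 770. The order of the arrays thus differed between ribosomal genes.

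Most ribosomal proteins are encoded by several near-identical genes, and 43 of 59 measured families had at least 1 member. In 44 families with more than 1 measured gene, 31 held both members and non-members, 8 held only members and 5 held none. In the S15 family AT5G09510 read 147, 137 and 160, while AT5G43640 read 0.789, 8.68 and 0.732. How far probes of one copy also bind its relatives was not measured, so the split within a family is uncertain. The 62 members had a median SD of log2 signal of 0.27, against 0.38 over all members. AT5G61170, of the S19 family, read 159, 156 and 153, and AT5G20290, of the S8 family, read 462, 441 and 454.

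Nuclear genes of the mitochondrial respiratory chain and ATP synthase were members in 24 of 41 measured cases, or 58.5%. Complex I, which takes electrons from NADH, had 11 of 16, complex III 6 of 11, complex IV, which passes them to oxygen, 4 of 7, and the ATP synthase 2 of 5. AT4G37830, of complex IV, read 2187, 1691 and 1512. AT1G14450, of complex I, read 1324, 1498 and 1176, and AT3G08610, also of complex I, read 657, 1149 and 849. CYTC-1, a cytochrome c that carries electrons between complexes III and IV, read 908, 689 and 579, whereas CYTC-2 read 117, 96.0 and 50.9 and was no member. Of 11 measured genes of the mitochondrial genome itself, nad4 was the only member, at 199.5, 174 and 143. Its neighbour in level, cox1, read 119, 74.6 and 67.4.

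**Figure D2:**
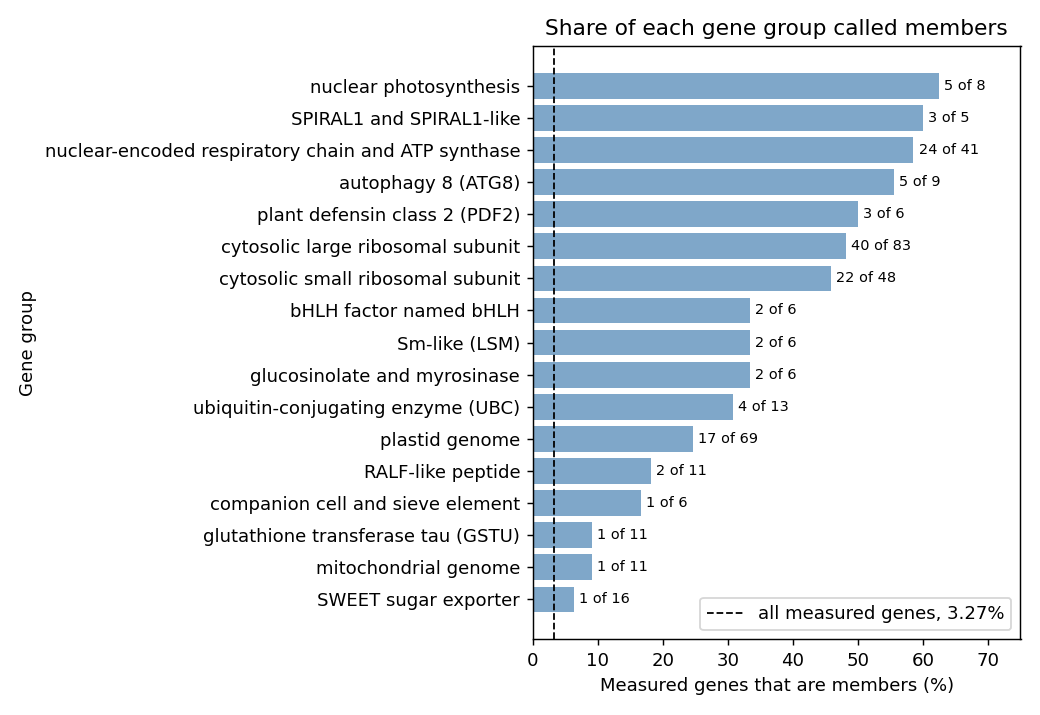
Share of measured genes that were members, for each gene list, organelle genome or symbol family with at least 5 measured genes, with counts beside the bars and the share over all measured genes, 3.27%, as a dashed line. The respiratory chain with 24 of 41 and the ribosomal subunits with 40 of 83 and 22 of 48 hold the largest counts. The ribosomal and respiratory lists and the symbol families were assembled with member loci in view, so their bars may be raised. Each symbol family holds at least 1 member, so its bar lies above the dashed line by construction.

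Of 69 measured plastid genes 17 were members, or 24.6%. RNA was captured by poly-A on oligo-dT beads, and how fully each plastid transcript was captured was not measured. Their ranks therefore order signal and not abundance in the plastid. They came from nearly all classes of plastid gene product: 5 of 15 photosystem II genes (psbM, psbZ, psbK, psbJ and psbF), 2 of 5 photosystem I genes (psaI and psaB), 2 of 10 NADH dehydrogenase-like genes (ndhC and ndhD), and 3 of 15 ribosomal protein genes (rps4, rps19 and rpl32). The others were atpE of the plastid ATP synthase, petA for cytochrome f, rpoA of the plastid RNA polymerase, ccsA for heme attachment and the protease gene clpP. After psbM the highest were ccsA, at 3624, 1381 and 2553, and rps4, at 2886, 1657 and 2448. For both, array 1 was the highest and array 2 the lowest.

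Other plastid genes lay below the threshold on at least 1 array. The gene rbcL, for the large subunit of Rubisco, read 60.8, 23.9 and 14.9. Photosystem II core gene psbA, at 403, 95.0 and 95.0, passed the threshold on array 1 alone. For psaA, which lies beside psaB and encodes the other core protein of photosystem I, the signals were 16.8, 12.5 and 1.87, against 826, 178 and 400 for psaB. These 3 non-members were named after their values were seen. Along the plastid genome 4 of 64 neighbouring measured pairs were both members: ndhC with atpE, petA with psbJ, rpl32 with ccsA, and ccsA with ndhD. With 24.6% of measured plastid genes being members, some such pairs arise without any link between neighbours. Whether the pairs exceed that number was not tested, so they show no grouping of members.

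As deposited, array 1 held the highest signal for most members, a count that depended on the scaling, and for nearly all plastid and photosynthesis members. Of the 837 members 460, or 55%, had their highest signal on array 1, 316 on array 2 and 61 on array 3, and 543 were lowest on array 3. The 460 became 352 when arrays were scaled to their trimmed mean and 234 after quantile normalization. The 61 highest on array 3 became 152 and 269 under the same scalings, so their small number also depended on the scaling. Of the 17 plastid members 16 were highest on array 1, none on array 2, and psbJ on array 3, and under those scalings 15 and 12 were highest on array 1. Their median SD of log2 signal was 0.73. The summed signal of all 69 measured plastid genes was 40499, 17057 and 20226. PSBW of photosystem II read 1759, 1055 and 401, and PSAE-1 of photosystem I read 1426, 313 and 373. PSAN, also of photosystem I, read 796, 331 and 232, and PSBY of photosystem II read 652, 202 and 208. LHCB4.1, a minor light-harvesting protein, read 489, 187 and 114, so all 5 nuclear photosynthesis members were highest on array 1, as they were under both scalings.

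Measured against each array's median member signal, array 1 exceeded the mean of arrays 2 and 3 by a median of 1.37 on the log2 scale for the 5 nuclear photosynthesis members, with a range of 1.13 to 1.76. The same difference was 0.86 for the 17 plastid members, ranging from 0.06 to 2.0. For ribosomal members the median was -0.13 and for respiratory chain members -0.14. Members outside photosynthesis were high on array 1 too: the difference was 0.78 for CLE41, 1.92 for LCR68 and 0.62 for GSTU20, and its median was 0.55 for the 2 RALF-like members and 0.43 for GAPC2 and TPI. Membership itself needed all 3 arrays, so each of these genes also lay above the threshold on arrays 2 and 3. Of 3 measured CURT1 genes, which shape thylakoid membranes, 2 were members as well: AT4G01150 read 835, 762 and 424, and AT1G52220 read 780, 303 and 164. The first was nearly level on arrays 1 and 2 and the second was highest on array 1.

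**Figure D3:**
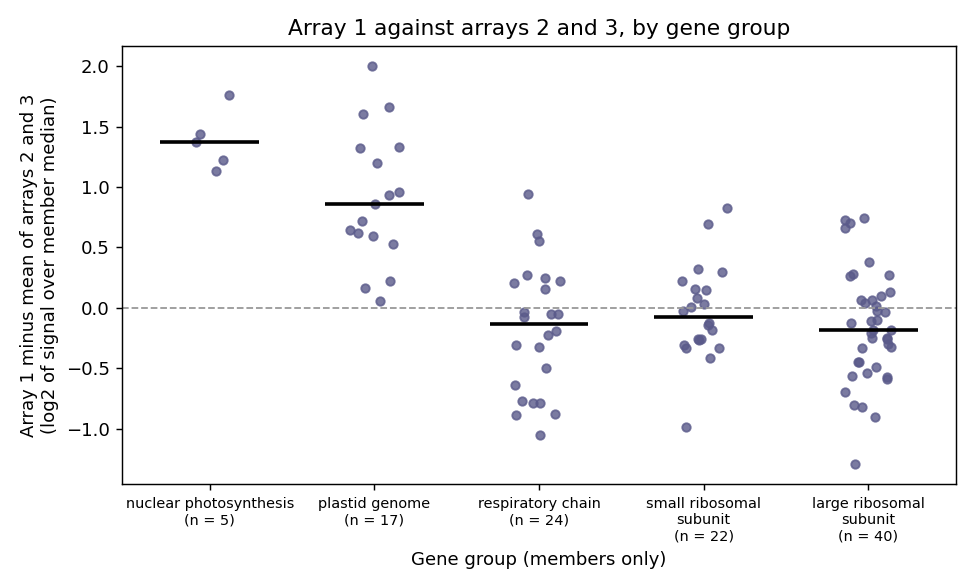
Difference between array 1 and the mean of arrays 2 and 3, in log2 of the signal over the array's median member signal, for each member of 5 gene groups, with a bar at the group median. On this scale all photosynthesis and plastid members lie above 0 (after quantile normalization 12 of 17 plastid members were highest on array 1), with medians of 1.37 and 0.86, while respiratory and ribosomal members lie on both sides of it.

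Smaller families showed which of their genes made up the signal. Of 9 measured ATG8 genes, whose proteins coat autophagic membranes, 5 were members. APG8H led with 1105, 1291 and 906, followed by ATG8F at 665, 583 and 446. ATG8D, ATG8B and ATG8C lay between 117 and 186.4 on all arrays. Among 13 ubiquitin-conjugating enzymes, which pass ubiquitin to target proteins, the 4 members were UBC29, at 1379.9, 978 and 1066, UBC28, at 549, 431 and 311, UBC30, at 232, 233 and 214, and UBC27. The last was among the members nearest the threshold, at 129, 141 and 134.

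Among 5 SPIRAL1 genes, for small proteins that bind cortical microtubules, 3 were members. SP1L5 read 1679, 1540.4 and 806, SPR1 read 793, 407 and 456, and SP1L3 read 289.5, 252 and 218. SP1L2 and SP1L4 were no members and did not exceed 54.3. Class 2 defensins, small secreted cysteine-rich peptides, were members in 3 of 6 cases. LCR68 read 1703, 324 and 412, LCR69 read 580.3, 293 and 672, and PDF2.1 read 244, 120.1 and 215. These 3 lie close together on chromosome 2, and array 2 was the lowest for each.

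Counts for secreted peptides and sugar exporters were small, beside the 3.27% of all measured genes. The symbol families were assembled with member loci in view and each holds at least 1 member. Shares above 3.27% were thus built in and say nothing by themselves. RALFL32, a RALF-like peptide of the class that alkalinises the cell wall space, read 373, 238 and 285, and RALFL34 read 303, 137 and 131, as the 2 members among 11 measured, or 18.2%. SWEET13 was the only member of 16 SWEET genes, or 6.25%, at 203, 182 and 97.8, the last close to its threshold of 95.1. Metallothionein MT1C, a small metal-binding protein, read 776, 991 and 634. In glycolysis GAPC2, the cytosolic glyceraldehyde 3-phosphate dehydrogenase, read 315, 204 and 219, and TPI, the triose phosphate isomerase, read 225, 139.7 and 107. Both were highest on array 1.

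Beyond the lists and families 28 members had a symbol, with varied functions. The following were named after their values were seen, with no theme tested. SRX, a sulfiredoxin that restores peroxiredoxins, read 488, 468 and 189. APS4, an ATP sulfurylase that activates sulfate, read 183, 225 and 142, and SIR, the sulfite reductase later in that pathway, read 173, 154 and 116. PRXR1, a peroxidase, read 1147, 713 and 582, and CYS1, a cystatin that inhibits cysteine proteases, read 682, 1052 and 696. SRX, APS4, SIR and PRXR1 were lowest on array 3, like most members, and CYS1 was highest on array 2.

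No member came from the lists of early stress and cold (0 of 3 measured), jasmonate and wound (0 of 2), reference genes (0 of 3) or translation factors (0 of 1), and no aquaporin was measured. At 3.27% of all measured genes, lists of this size are too short to read from their 0 counts. Among members outside the lists were DI19, a zinc finger protein named for induction by drought, at 372, 396 and 156, and TIL, a lipocalin named for induction by temperature, at 399.8, 284 and 249. COR47, a dehydrin, read 107, 117 and 83.9 and STZ, a zinc finger factor, 74.7, 75.5 and 78.5. THI2.1, a thionin, read 7.14, 13.97 and 6.82, and PDF1.2, a jasmonate-responsive defensin, 2.86, 1.91 and 14.8. EIF4A-2, a translation initiation factor, read 121, 91.8 and 129.6, above the threshold on array 3 alone. In all 141 of the 437 member genes stood in a list or family, and 268 had neither a list nor a symbol.

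Replicates agreed more closely among members than among all probe sets. Over the members the median SD of log2 signal was 0.38, and 610 of 837 members, or 72.9%, differed by less than 2-fold between their highest and lowest array. The median SD was 0.35 for the 2066 other probe sets above the 80th percentile on all arrays and 0.72 for all 21909 other probe sets. The rule itself asks for a high signal on every array. Across probe sets Spearman's rho between pairs of arrays was 0.722 to 0.734 over all probe sets and 0.788 to 0.840 over the members, as a description of arrays that share probes.

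The widest spread among single-gene members was that of psbK, at 2327, 390.2 and 570.3, an SD of log2 signal of 1.36. LCR68, PSAE-1, atpE and ndhD followed with 1.29, 1.198, 1.19 and 1.13. The signals of atpE were 3223, 1177 and 627, and those of ndhD 1184, 313 and 294. All 5 were highest on array 1. The narrowest was that of AT2G01720, at 172, 173 and 174, followed by AT5G61170, AT5G20290, AT4G09890 and AT1G68300, with SDs of up to 0.04. AT4G09890 read 371, 375 and 356 and AT1G68300 read 181, 171 and 176.

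**Figure D4:**
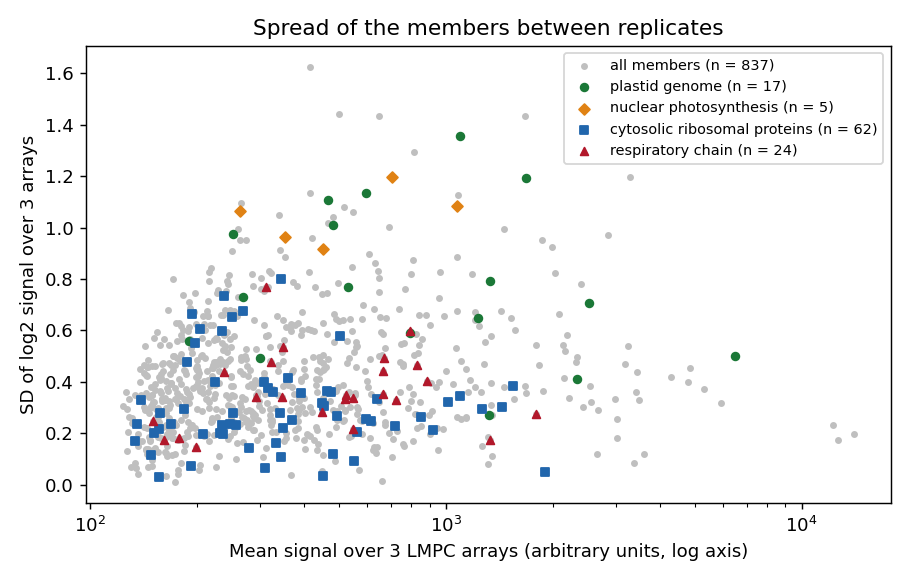
SD of log2 signal over the 3 LMPC arrays against mean signal on a log axis, for all 837 members in grey and for 4 gene groups in colour. Most plastid and nuclear photosynthesis members lie high, with median SDs of 0.73 and 1.07, and ribosomal members low, with a median of 0.27.

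At the threshold the order of genes was within the replicate spread. AT1G77540, at 129, 212 and 116, UBC27, and AT3G01860, at 137, 139 and 95.5, lay just inside. Just outside lay AT1G52600, at 152, 161 and 94.4, AT4G10300, at 293, 118 and 145, and AT5G59140, at 126, 339 and 177. Each of these 3 missed the threshold on 1 array only. Of 1474 probe sets above the threshold on any array, 837 were so on all 3, 266 on exactly 2 and 371 on exactly 1.

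Member genes had short spans, a feature the rule did not use. The median span of the nuclear gene, introns included, in assembly TAIR10.1 was 1533 bp for 419 member genes and 2139 bp for 12845 others. Genes over 3000 bp made up 4.77% of the members and 26.6% of the others. Of 1993 genes over 1000 and up to 1500 bp 130 were members, or 6.52%, of 2716 genes over 3000 and up to 5000 bp 17, or 0.626%, and of 331 genes up to 500 bp 2. Without the ribosomal and respiratory lists the medians were 1506 and 2146 bp. The shortest was AT2G43550, of 347 bp, at 523, 337 and 311, and the longest AT5G40450, of 11239 bp, at 269.7, 464 and 229. The 3' to 5' signal ratios of the control transcripts on the LMPC arrays were 4.87 to 6.63 for actin, 36.8 to 48.6 for GAPDH and 8.62 to 10.5 for ubiquitin, and their part in the share of short genes was not tested.

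**Figure D5:**
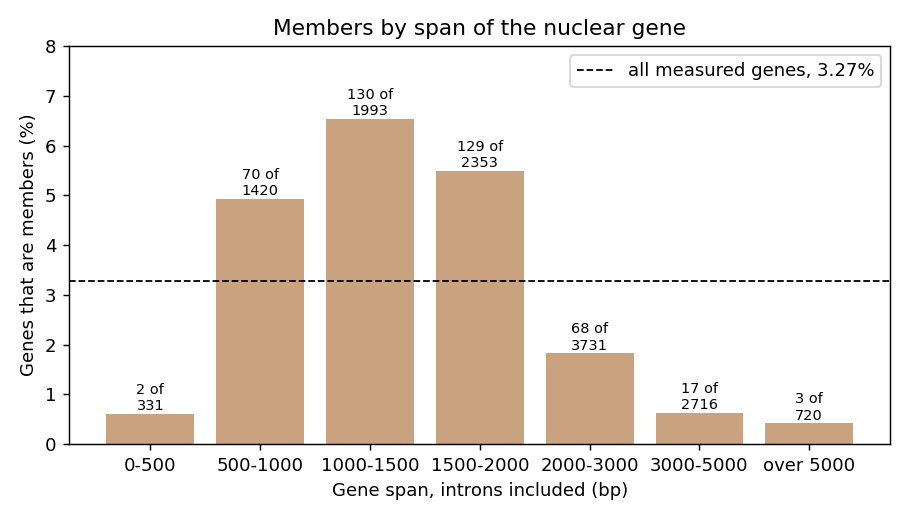
Percent of measured nuclear genes that were members, by gene span with introns, with counts above the bars and the share over all measured genes, 3.27%, as a dashed line. The share is highest at 6.52% for spans over 1000 and up to 1500 bp and falls to 0.417% over 5000 bp.

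Members were spread evenly over the nuclear chromosomes, with 2.98% to 3.30% of measured genes on chromosomes 1 to 5. Of 5849 neighbouring pairs of measured nuclear genes 393 held at least 1 member, and in 16 both genes were members. How many such pairs the member share alone would give was not tested, so the count shows no grouping by itself. One of the 16 was AT1G67860 with AT1G67865, both among the 20 highest. Another was AT4G23493, at 194, 165 and 152, with SP1L5. The gene spans overlapped in 2 of these pairs, AT1G32460 with AT1G32470 and AT4G16400 with AT4G16410, where a probe set may not tell both genes apart.

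On the exudate arrays the members' median percentile was 96.3, 96.3 and 96.5. Above the 95th percentile on all 3 exudate arrays lay 827 of the 22746 non-control probe sets, and 432 members were among them. These are 51.6% of the 837 LMPC members and 52.2% of the 827 probe sets that met the same rule in exudate. AT3G60245 lay above the 99.9th percentile of every exudate array. Some of the brightest tissue genes ranked low there: AT1G67860 lay at the 58.2, 25.2 and 11.9 percentile, and AT4G34600, at 1256, 1969.9 and 1443 in tissue, at the 70.0, 18.9 and 6.95 percentile. GSTU20 lay at the 45.7, 12.9 and 66.3 percentile. The 2 sample types were amplified with different kits, and the kit cannot be told apart from the sample type, so no fold change or test is given.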

How the data were processed

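The authors deposited intensity values, 1 linear signal per probe set, and MAS5 is named without a version per the submitters' processing notes. For the scaling target, background settings and build: not given in the sources used here. Of 22810 probe sets 64 controls were left out. Groups came from the sample titles (n = 3 each). Non-control probe sets were ranked within each LMPC array, so no scaling between arrays entered the membership. Array signals carry no counts, and the number of arrays limits the precision.

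A gene was measured by its single-gene probe set (13513 probe sets, 13502 matched to TAIR10.1). The members and lists were chosen with earlier results of these data known. Of 15 first lists (244 loci) 37 loci were measured and 14 were members. The ribosomal and respiratory lists (286 loci, written from knowledge of the locus codes) and 11 symbol families were assembled after values were seen, with member loci in view, so their shares may be raised. The families not described elsewhere were MSRB (1 of 4), Sm-like (2 of 6) and bHLH (2 of 6).

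Named genes were the 20 highest members by median rank, the 4 highest of each list, the 5 with the largest and smallest SD of log2 signal, the 3 on each side of the threshold, and 13 phloem genes fixed by name. Family members, list members below the first 4, non-members of the lists, the span extremes and neighbour pairs lay outside this rule and were named after their values were seen. No test was run. Python 3.11.15, pandas 2.3.3, NumPy 2.4.6 and matplotlib 3.10.9 were used. The selection code was run on simulated arrays at the 99th percentile, with planted probe sets far above the rest. That run checks the code only and says nothing about genes near the threshold.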

Additional observations from a re-analysis of the deposited data

How the results depend on the processing

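The number of members depended on the threshold: 1543 probe sets passed at the 90th percentile and 162 at the 99th. It was 1103 with at least 2 of 3 arrays, 804 with controls ranked too, and 903 to 944 leaving out 1 array. Ranking only probe sets of 1 gene gave 483, and 1 probe set per gene gave 477. By the mean of the arrays it was 1138, among them all 837. The median SD of log2 signal was 0.32 after scaling to the trimmed mean, 0.31 after quantile normalization and 0.27 to 0.36 leaving out 1 array. Plastid genes were members in 39.1% of cases at the 90th percentile and 11.6% at the 99th, and ribosomal genes in 64.9% and 7.63%, beside 6.10% and 0.547% of all genes. With at least 2 of 3 arrays ribosomal genes reached 58.8% and plastid genes 36.2%, beside 4.28%. Without array 2 plastid genes also reached 36.2%, and without array 1 or 3 they stayed at 24.6%. Among 54 alternatives for the groups other than plastid and ribosomal genes, 6 took the share outside the 95% binomial interval of the main share. For short lists that interval is wide, so a share inside it was not shown to be stable. Nuclear photosynthesis went from 62.5% to 75% at the 90th percentile and stayed inside. The symbol families were not part of this check. Members highest on array 1 numbered 460 as deposited, 352 after trimmed-mean scaling and 234 after quantile normalization, both chosen after seeing the data. For plastid members the count was 16, 15 and 12 of 17, for nuclear photosynthesis 5 of 5 each time, and for ribosomal members 30, 21 and 10 of 62. Members highest on array 3 numbered 61, 152 and 269 in the same order, and 9, 17 and 29 among the ribosomal members. No paired analysis was possible because the report rests on 1 group and no test.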
